A study of Caenorhabditis elegans with 4 samples.

Results

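The left end of chromosome X of Caenorhabditis elegans, taken here as the stretch up to 3 Mb, held 262 of the 7714 regions at which tagged SKN-1 was mapped in young larvae. The authors' list keeps 54.0% of the places their caller tested, and every member is a listed one. Members are the listed regions of X whose midpoint lies below 3000000 on the WormBase WS180 build. X beyond that limit held 1154 regions, and the first 3 Mb of the 5 autosomes held 977. The stretch was chosen by a measured value: its limit was set where the density of input tags at the regions changes. Values made from tags therefore describe the members and carry no test.

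SKN-1 is the worm relative of the mammalian Nrf transcription factors. It is known for switching on detoxification and oxidative stress genes in the gut of larvae and adults, and for specifying gut and pharynx precursors in the early embryo. In chromatin immunoprecipitation (ChIP), DNA bound by a protein is pulled down with an antibody and sequenced. Input is the same kind of chromatin without the pull-down, and it shows how much DNA each place yields by itself. Hermaphrodites carry a pair of every chromosome, X included.

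The study sequenced 2 ChIP libraries, made with a goat antibody against GFP, and 2 input libraries. All came from fed hermaphrodite larvae of the first stage (fed L1), kept at 20 °C. They were of strain OP178, whose genotype is unc119(ed3) with the transgene wgIs178. That transgene joins skn-1 to TY1, EGFP and FLAG tags and also brings a copy of unc119. The line was made by bombardment and outcrossed 3 times, so every library shares 1 transgenic line. Chromatin of whole larvae was used, with formaldehyde at 2% for every library. Signal from few cells with strong binding and from many cells with weak binding cannot be told apart. An untagged strain was not analysed here. The deposited list combines the libraries, so no spread between replicates can be given and no comparison between stretches carries a test. Gene positions and sequences on this build were not used here, and regions are therefore named by position.

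Each region comes with the authors' q value, and ChIP and input tags (sequenced fragments counted in the region) were recovered from it for all 262 members. Scaled input is the number of input tags after the chromosome's own scaling factor, 1.57 for X. The members held 60767 ChIP tags and 17947 input tags before scaling. Intervals in brackets are 95% exact (Clopper-Pearson) intervals of a ratio of ChIP to scaled input. They were computed from the tags before scaling and divided by the factor, so they cover counting error only and take the factor as known. Scaled counts are rounded up, which puts a ratio of large sums slightly below the middle of its interval. The larger recovered number was read as ChIP and the smaller as scaled input, which rests on knowledge of the caller and is not stated in the file.

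SKN-1::GFP regions of the left end of X held more input tags per kb than those on the rest of the chromosome. Among regions of at least 250 bp, the median was 91.8 input tags per kb in 179 members (quartiles 73.9 and 118). In the 808 regions of X beyond 3 Mb it was 50.7 (quartiles 40.1 and 66.0). The fold between the medians was 1.81. These densities are input tags before scaling per kb of width plus 200 bp. The lower quartile of the members lay above the upper quartile of the other regions, although single values overlapped. Of the members, 171 of 179 (95.5%) lay above the median of X beyond 3 Mb. Above its 90th percentile, 82.8 tags per kb, lay 109 members (60.9%), against 10.5% of all listed regions of this width. Of the regions beyond 3 Mb, 46 of 808 (5.69%) lay above the members' median.

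Input density stepped down across the limit. In windows of 1 Mb, the median input density of the left end was 81.0, 89.9 and 101 tags per kb, the last being the window next to the limit. In the next window, from 3 to 4 Mb, it was 48.7, and the 15 windows of X beyond the limit ran from 40.7 to 61.9. The windows of the left end were thus all above every other window of X. In steps of 100 kb the medians were 80.1 just inside the limit and 59.6 just outside it. Over 102 windows of 1 Mb on all chromosomes, their places by input density were 1, 2 and 4. Place 3, at 82.8, went to the window of chromosome IV from 5000001 to 6000000, which holds 19 regions of this width.

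**Figure D1:**
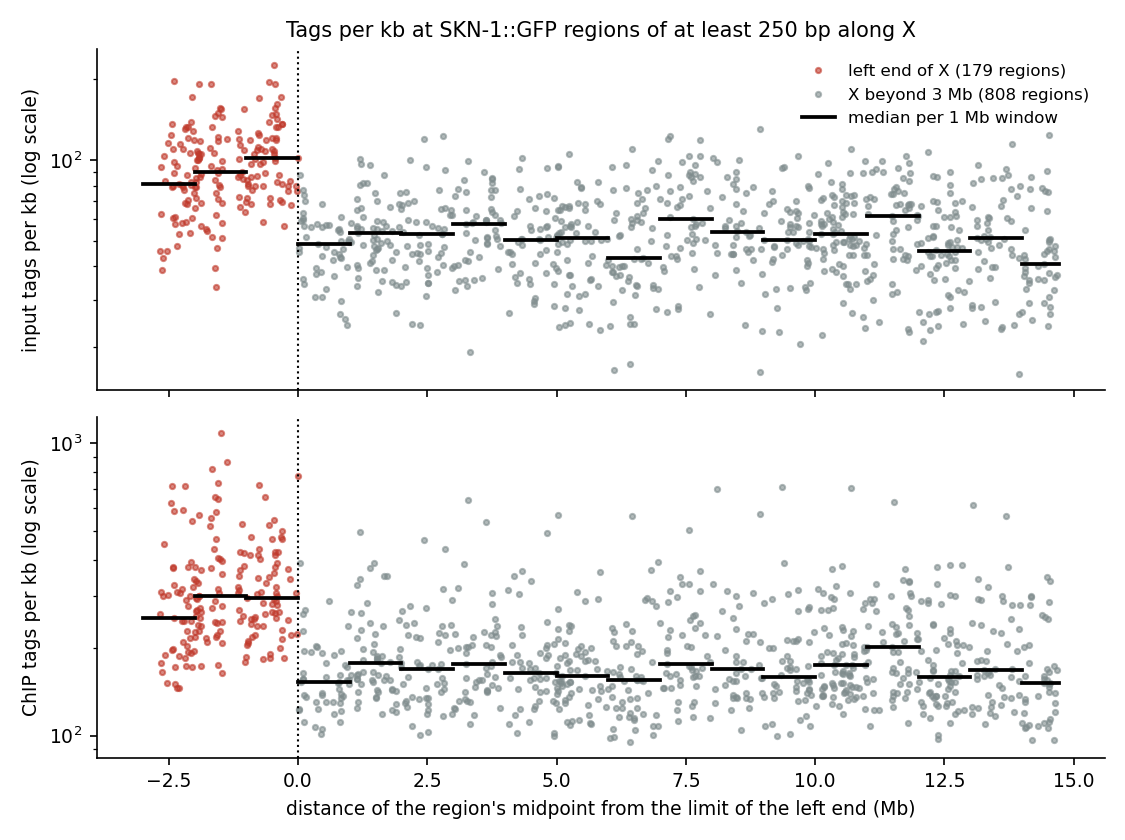
Input tags per kb (top) and ChIP tags per kb (bottom), both on log axes, of every region of X that is at least 250 bp wide, against the distance of its midpoint from the 3 Mb limit (dotted line). Red points are the 179 members, grey points the 808 regions beyond the limit, and black lines the medians of 1 Mb windows, which are 81.0 to 101 input tags per kb left of the limit and 40.7 to 61.9 right of it.

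ChIP tags per kb were higher by nearly the same factor. The members had a median of 293 ChIP tags per kb (quartiles 227 and 380), against 165 (quartiles 139 and 219) on X beyond 3 Mb, a fold of 1.77. A listed region must hold more ChIP than input, so the ChIP density of listed regions is tied to their input density. The excess of ChIP over scaled input had a median of 132 tags per kb in the members and 85.2 beyond 3 Mb, a fold of 1.54. The gain in excess was smaller than the gain in either kind of tag.

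The single regions on both sides of the limit show the step only in part. Just inside lay the region at 2996457 to 2997469, with 101 input tags per kb and 938 ChIP tags. Next to it lay a single base at 2975734 with 38 ChIP tags, and a region at 2972363 to 2972775 with 76.7 input tags per kb. Just outside, the regions at 3022341 to 3023047 and 3023507 to 3024179 had 45.2 and 47.0 input tags per kb. The third region outside, at 3035858 to 3036400, had 87.5 input tags per kb and a ratio of 2.83 (2.16 to 3.77), a level like that of the members. The step is therefore one of medians. Single regions on the right side can reach the level of the left. The single base inside, at 29.9 input tags per kb, lay below all 3 regions outside, which were wider. For regions under 100 bp on X beyond 3 Mb the median was 17.6, so the single base does not go against the step.

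At the other edge, towards the chromosome's tip, the first regions had lower input. The first member, at 117173 to 117312, was followed by 205 kb without any region. Of the 8 members up to 400000, 5 were at least 250 bp wide, and their median input density was 45.6 tags per kb, close to the 50.7 of X beyond 3 Mb. Their values ran from 38.9 at 369985 to 370273 up to 94.0 at 353181 to 353565. Between 400001 and 500000 the median was 93.3 over 4 regions. Few regions stand behind these values, and a left edge of the raised stretch was not determined.

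The members had denser input in every class of width. Under 100 bp the median was 37.9 tags per kb in 42 members, against 17.6 in 149 regions of X beyond 3 Mb. Between 250 and 500 bp the median input density was 80.4 tags per kb in 90 members, against 44.7 in 433 regions beyond 3 Mb. Between 500 and 1000 bp it was 103, against 56.6, and among those of at least 1000 bp it was 118, against 68.6. Density was higher in wider regions on both sides of the limit.

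Compared with the first 3 Mb of the autosomes, the left end of X stood further apart in input. The median was 91.8 input tags per kb in the members, against 45.7 in the 627 autosomal regions of at least 250 bp, a fold of 2.01. Single autosomes ran from 39.8 on II to 48.8 on IV, with I at 48.7, III at 44.4 and V at 42.8. None of the 5 autosomal stretches exceeded X beyond 3 Mb. For ChIP tags per kb the autosomal medians ran from 153 on II to 177 on IV, against 293 for the members. Recovered ChIP tags do not depend on the scaling factors, whereas input tags before scaling were obtained with each chromosome's own inferred factor.

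**Figure D2:**
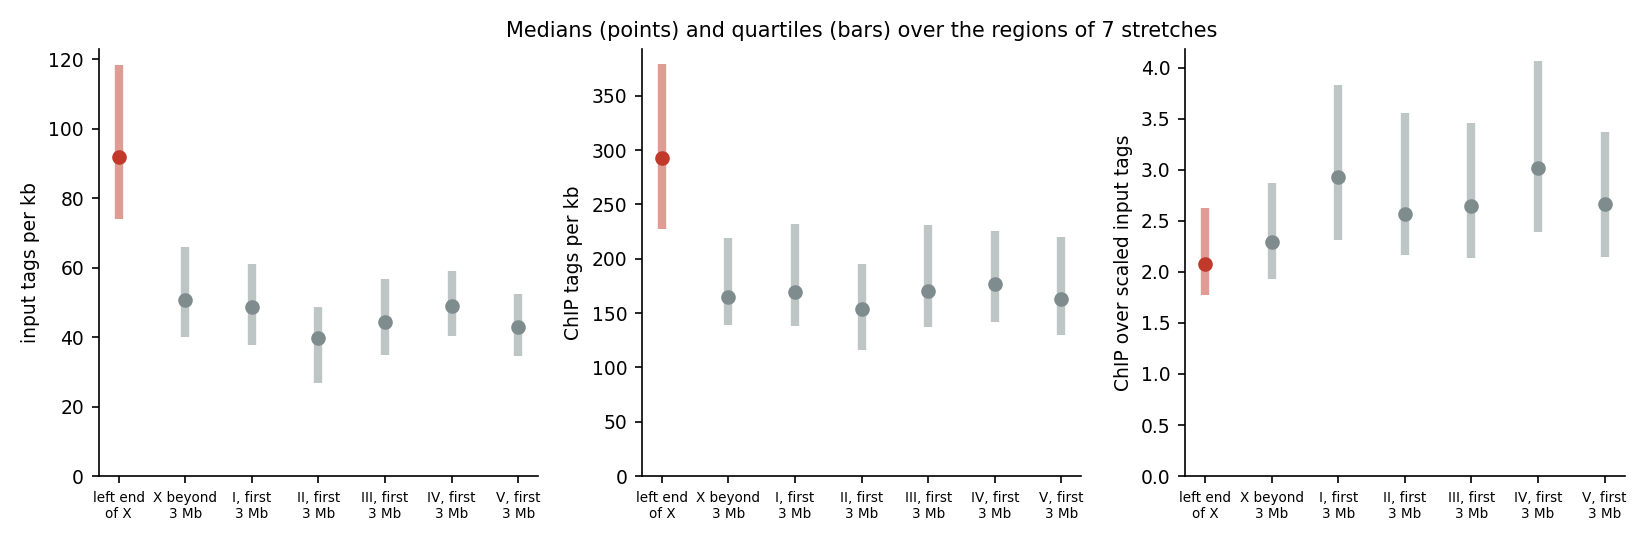
Medians (points) and quartiles (bars) of input tags per kb and ChIP tags per kb for regions of at least 250 bp, and of the ratio of ChIP to scaled input for all regions with recovered tags, in 7 stretches. The left end of X (red) has the highest medians for input, 91.8, and ChIP, 293, and the lowest for the ratio, 2.08.

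The ratio of ChIP to scaled input was lower at the left end of X than in the other stretches compared. Input is its denominator, and input density set the limit of the stretch, so a lower ratio is tied to that choice. The excess of ChIP over scaled input was instead highest at the left end. Its median was 132 tags per kb, against 85.2 on X beyond 3 Mb and 97.7 in the first 3 Mb of the autosomes. The median ratio of ChIP to scaled input was 2.08 (quartiles 1.77 and 2.63), against 2.29 (quartiles 1.93 and 2.88) on X beyond 3 Mb. A ratio above 2 was reached by 144 members (55.0%), while the share in the whole list was 76.0%. A ratio above 4 was reached by 11 members (4.20%), where the whole list has 11.5%. On X beyond 3 Mb the shares were 69.7% and 7.19%, so X as a whole lay below the list and its left end lay lower still. With all tags summed, the ratio was 2.15 (2.12 to 2.20) at the left end and 2.25 (2.24 to 2.29) beyond 3 Mb.

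The number of input tags differed along with the ratio. The members had a median of 47 input tags, against 25 beyond 3 Mb, and a region with more input passes the authors' limit at a lower ratio. The part of this in the members' ratios was not tested. With 20 to 39 input tags before scaling the median ratio was 1.92 in 43 members and 2.10 in 316 other regions of X. With 40 to 79 it was 1.85 in 75 members and 1.96 in 262, and with 80 or more 1.95 in 73 and 2.03 in 104. The members were lower in each of these classes, and the quartile ranges overlapped throughout. Under 10 input tags the order turned, with 3.41 in 28 members and 3.29 in 223 other regions.

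**Figure D3:**
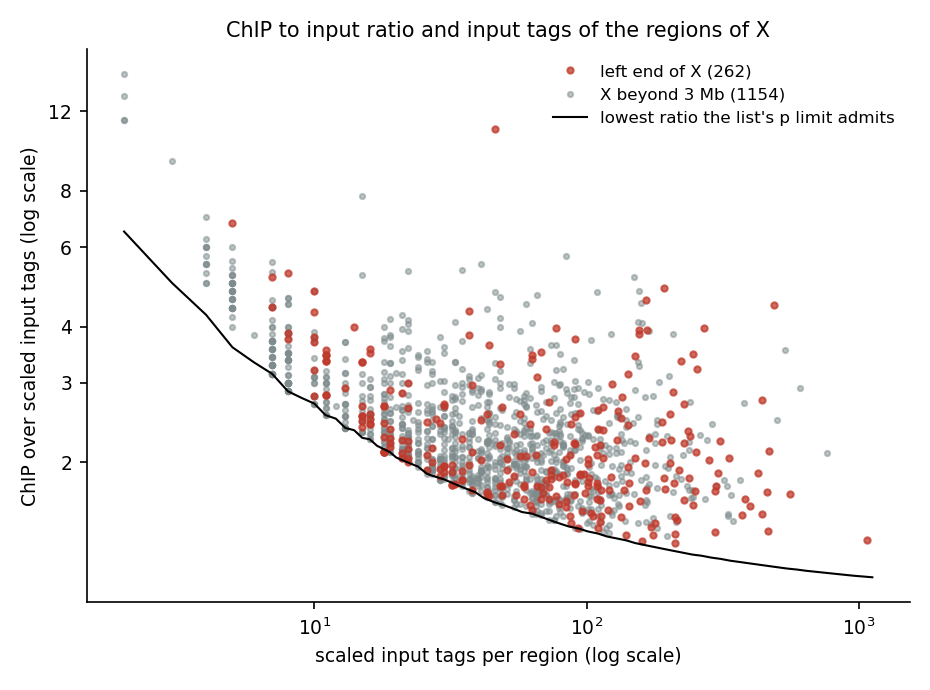
Ratio of ChIP to scaled input against scaled input tags for each region of X, both on log axes, with the 262 members in red and the 1154 other regions in grey. The black line is the lowest ratio that the list's p limit admits at each input; members lie further right, with a median of 74 scaled input tags against 40.

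On the autosomes the first 3 Mb held regions of higher ratio, with medians from 2.57 on II to 3.02 on IV. The share above 4 ran from 13.5% on III to 25.2% on IV, against 4.20% for the members. Scaling factors were inferred for each chromosome, so ratios compared between chromosomes rest on them. For the first 3 Mb of V, whose factor of 1.58 is close to that of X, the median ratio was 2.67. The part of the factors in these differences was not tested.

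In spite of lower ratios, the left end of X held many of the regions with the smallest q. There were 12 members (4.58%) among the 100 regions with the smallest q, a group that makes up 1.30% of the list, against 15 (1.30%) of the regions of X beyond 3 Mb. Among the best 500 were 35 members (13.4%), against 6.48% of the list. A q under 1e-10 was given to 73 members (27.9%), where the whole list has 18.6% and X beyond 3 Mb 15.0%. The first 3 Mb of each autosome placed between 1 and 5 regions among the best 100. At an equal ratio more tags give a smaller q. The members had a median of 150.5 ChIP tags, against 86 beyond 3 Mb, and the part of tag number in the small q values was not tested.

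The strongest single signal lay at 1503473 to 1505268. It ranks 3 in the whole list, with a q of 6.19e-249, and held 2170 ChIP tags over a scaled input of 487, a ratio of 4.46 (3.96 to 5.04). It had 1087 ChIP tags per kb, where the members' median was 293. The region with the smallest q on X beyond 3 Mb, at 12663018 to 12668857, had 1897 ChIP tags over a scaled input of 534. The member spanned 1796 bp and the region beyond 3 Mb 5840 bp, so the member carried more tags on a shorter length. Input of the member was denser too, at 155 tags per kb against 56.3. The ratio of the region beyond 3 Mb was 3.55 (3.17 to 4.01), and its interval overlaps that of the member.

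Further strong members lay nearby, between 1344733 and 1627514. At 1456226 to 1457483 a ratio of 3.97 (3.38 to 4.70) rested on 1067 ChIP tags, and 868 bp to its left the region at 1453675 to 1455357 had 1213 ChIP tags and a ratio of 2.75 (2.42 to 3.15). The intervals of these neighbours do not overlap. At 1626840 to 1627514, with a ratio of 4.59 (3.75 to 5.70), lay the last region before a stretch of 164 kb without any. The region at 1344733 to 1345331 was the narrowest of the 10 with the smallest q, at 599 bp, and had a ratio of 3.92 (3.21 to 4.89).

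Near the tip of the chromosome, the regions at 535669 to 536779, 573059 to 573900 and 806253 to 807257 were also among these 10. Their ratios were 3.22 (2.73 to 3.85), 3.35 (2.80 to 4.04) and 3.47 (2.94 to 4.16). These 3 intervals overlap widely, so their order was not resolved. The 10 members with the smallest q together held 16.0% of all ChIP tags of the left end.

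The member with the highest ratio also had the least dense input of those of at least 250 bp. At 1420263 to 1420926, 505 ChIP tags stood over a scaled input of 46, a ratio of 10.98 (7.64 to 16.8). Its 33.6 input tags per kb were the lowest of 179 members, while its 584 ChIP tags per kb lay above their upper quartile of 380. Its left neighbour, 510 bp away at 1419304 to 1419752, had 75.5 input tags per kb and a ratio of 3.97 (2.94 to 5.50). Among the 10 members with the highest ratios, its interval lay above all 9 others, of which the region at 382725 to 383057 came nearest with an upper bound of 7.20. A value taken from the top of a ranking is more often an overestimate than an underestimate.

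The members with the least dense input were few. Input density was below the median of X beyond 3 Mb in 8 members of at least 250 bp, and 7 of these had a ratio above 2, a ratio that 76.0% of the whole list exceeds. Among the 7 were the regions at 382725 to 383057, with a ratio of 4.32 (2.85 to 7.20), and 1394378 to 1394758, with 3.84 (2.52 to 6.41). At the other end, the 5 members with the densest input had ratios from 1.41 to 1.90. The densest, at 2536103 to 2537148, had 226 input tags per kb and a ratio of 1.54 (1.34 to 1.78). Input tags are the denominator of the ratio, so low input and a high ratio are tied by construction.

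Of the 10 members with the highest ratios, counted among those with at least 20 input tags, 6 were also among the 10 with the smallest q. Beyond the regions already named, these 10 took in 590582 to 592016, with a ratio of 3.92 (3.18 to 4.93) and only 60.6 input tags per kb, and 2364596 to 2365310, with 3.85 (3.12 to 4.83). The tenth of them thus stood at 3.85, and the next below 10.98 was 4.86 (4.03 to 5.92) at 2996457 to 2997469. From there down, the intervals of neighbours in the order overlapped.

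**Figure D4:**
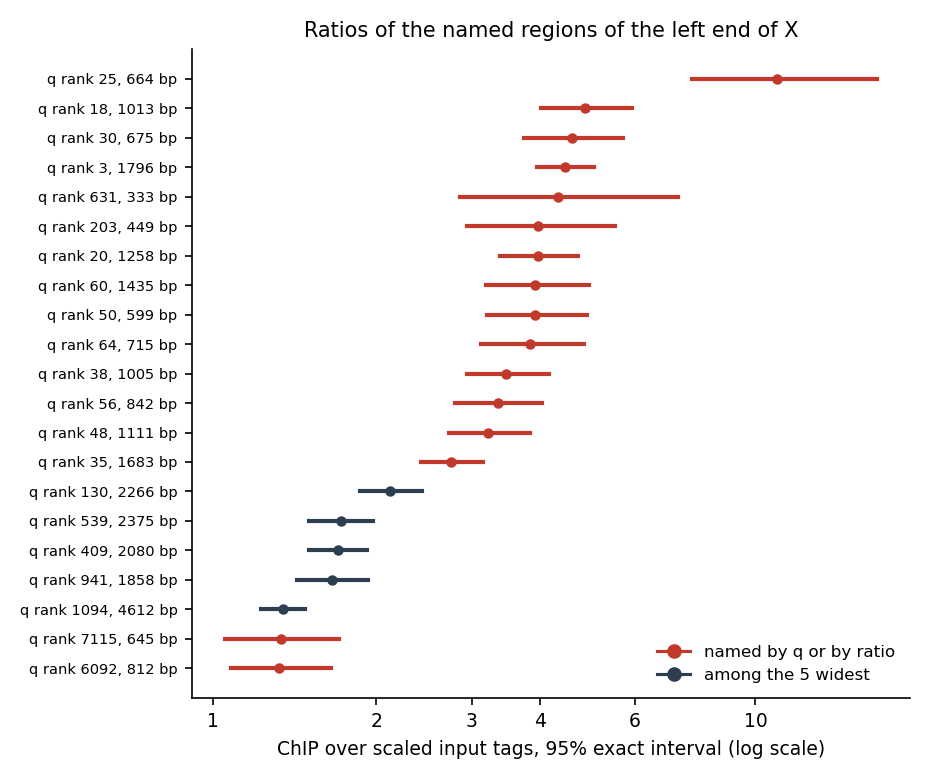
Ratio of ChIP to scaled input with 95% exact intervals, on a log axis, of the members named for the smallest q, the highest or lowest ratio (red) or the width (dark), each marked by its rank by q in the whole list and its width. The region of rank 25 stands at 10.98, the other strong members between 2.75 and 4.86, and the 5 widest between 1.35 and 2.12.

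Wide regions were common at the left end of X. At least 1000 bp were spanned by 34 members (13.0%), against 86 (7.45%) on X beyond 3 Mb and 5.67% of the whole list. In the first 3 Mb of the autosomes they made up 2.66%. The median width, 382 bp, was close to the 364 bp of X beyond 3 Mb, while the quartiles were further apart, at 175 and 675 bp against 216 and 572 bp. Regions of at least 1000 bp covered 38.2% of the listed length of the left end, against 26.6% beyond 3 Mb. Their median ratio was 1.87 at the left end and 1.96 beyond 3 Mb. A ratio above 2 was reached by 15 of the 34 (44.1%) and 41 of the 86 (47.7%), against 76.0% of the whole list.

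The 5 widest members were weakly enriched. The region at 2589093 to 2593704 spanned 4612 bp and had 1443 ChIP tags over a scaled input of 1071, a ratio of 1.35 (1.23 to 1.48). It ranks among the 3 lowest ratios of the left end, with the regions at 870898 to 871709, at 1.33 (1.08 to 1.65), and 2580495 to 2581139, at 1.34 (1.05 to 1.71). Of the other 4 widest, those at 726289 to 728663, 2552231 to 2554310 and 2581833 to 2583690 had ratios of 1.72 (1.50 to 1.98), 1.70 (1.50 to 1.93) and 1.66 (1.43 to 1.93). Only the region at 1445779 to 1448044 exceeded a ratio of 2 among these 5, at 2.12 (1.86 to 2.43). None of the 5 widest was among the 10 with the smallest q or the 10 with the highest ratio. The member at 1503473 to 1505268, little narrower at 1796 bp, had a ratio of 4.46 (3.96 to 5.04).

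Of these wide or weak regions, 4 belong to a single crowded window. From 2500001 to 2600000 lay 22 members, the largest number in any 100 kb of the left end, where the median window held 8.5. They covered 19.0 kb, and 8 of them were at least 1000 bp wide. Their median ratio was 1.76, against 2.11 in the 240 other members. Of the 22, 5 (22.7%) exceeded 2, against 55.0% of all members and 76.0% of the whole list. Input was denser still, with a median of 127 tags per kb over 14 regions, against 88.0 in the other members. Crowding, width, high input and low ratio came together in this window, which was singled out after its values were seen. High input and a low ratio are tied by construction.

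Along the stretch, input density did not climb evenly and ratios followed no trend. In steps of 500 kb the median input density was 62.8, 81.8, 89.3, 91.3, 98.2 and 103 tags per kb, from 9, 40, 45, 22, 33 and 30 regions. Steps of 200 kb gave another picture: the median was 121 from 2400001 to 2600000 and then lower, at 87.9 and 79.6, in the last steps before the limit, which held 9 and 7 regions. In the steps of 500 kb the median ratios were 2.53, 2.00, 2.16, 2.37, 1.88 and 2.01. Among these 6 steps, a q under 1e-10 was most frequent between 1000001 and 1500000, with 21 of 56 regions (37.5%). The lowest share was 3 of 15 (20.0%) up to 500000, against 18.6% of the whole list. Where the share was high depended on the step. With 200 kb it was 8 of 16 (50%) from 1200001 to 1400000 and 7 of 17 (41.2%) from 2200001 to 2400000. From 1000001 to 1200000 it was 6 of 23 (26.1%). Of the 12 members among the 100 smallest q, 6 lay between 1344733 and 1627514, an interval drawn around these 6 after they were seen.

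**Figure D5:**
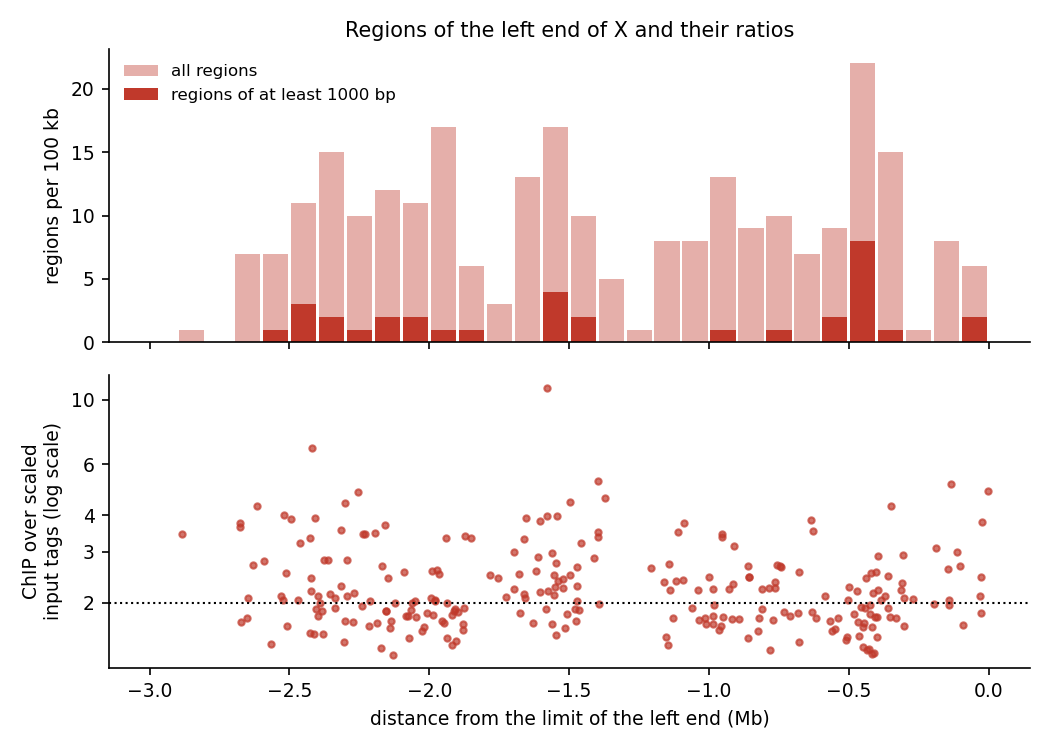
Number of members per 100 kb (top, pale bars), with those of at least 1000 bp in dark bars, and the ratio of ChIP to scaled input of each member on a log axis (bottom), against the distance from the 3 Mb limit. In the tallest bar, with 22 regions of which 8 are wide, 5 ratios lie above 2 (dotted line).

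Among the stretches compared, the left end of X held the most regions per Mb. Counted from its first region, it held 90.9 per Mb, against 78.4 on X beyond 3 Mb, a fold of 1.16. Among the first 3 Mb of the autosomes, density ran from 51.5 on V and 52.0 on II to 82.1 on I. Over all 34 windows of 3 Mb, however, the left end came in place 9 by number, with 262 regions against 269 on X from 12000001 to 15000000. The fold over X beyond 3 Mb was 1.62 in the best-ranked 50% of the list and 1.96 in the best-ranked 25%. In that 25%, the left end held 32.9 regions per Mb and X beyond 3 Mb held 16.8. Rank follows q, and at an equal ratio more tags give a smaller q. Members were chosen where input is dense and held more tags. A cut by rank is therefore tied to that choice, and the rise of the fold supports no order.

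Spacing depended on the distance and on the part of the list looked at. Another midpoint lay within 2 kb of 89 members (34.0%), against 35.2% on X beyond 3 Mb and 35.7% of the whole list. Within 1 kb the shares were 7.63% at the left end and 10.8% beyond 3 Mb, and within 5 kb they were 69.8% and 64.6%. In the best-ranked 25% of the list, another midpoint within 2 kb was found for 9.09% of the members and for 5.31% of the regions beyond 3 Mb. Rank is tied to tag number and so to the choice of members. The median gap between neighbours was 4909 bp at the left end and 6265 bp beyond 3 Mb. Gaps over 50 kb numbered 5 of 261 (1.92%) at the left end, against 44 of 1153 (3.82%). The longest after that at the tip ran from 1627515 to 1791205, 164 kb without a region.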

How the data were processed

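The 2 ChIP and 2 input libraries of strain OP178 entered 1 combined list. The authors deposited a q value for each region (a p-value corrected for multiple tests), with coordinates on WormBase WS180, per the file headers, and PeakSeq in the list's source column. Aligner, caller settings and library depth are not stated ("not given in the sources used here"), nor is how replicates were merged. All q values lie under 0.01.

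Tags were recovered in SciPy 1.17.1 and NumPy 2.4.6, and tabulated in pandas 2.3.3 under Python 3.11.15. Every q equals p × 14281 / (rank + 1), and each p matches 2 whole numbers under a fair-coin binomial model, one-sided (tolerance 1e-11 in ln p). The pair was unique at 7709 of 7714 regions and at all members. Reading the larger number as ChIP and the smaller as scaled input rests on knowledge of PeakSeq. On X, 99.1% of the smaller numbers are rounded-up multiples of 1.568, which cover 63.8% of whole numbers; dividing by that factor gave input tags before scaling. The code for these steps was run on simulated data built by the same formulas. That checks the code alone, not the reading of the numbers or the factor in the deposited list. Replicate values are not in the list, so no test was run. Alternatives listed for edges, widths, thresholds and scaling were recomputed.

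Named are the 10 members with the smallest q, the 10 with the highest ratio (at least 20 input tags), the 5 widest, the 3 of lowest ratio, 3 on each side of the limit, the first and the last. Members, lists and comparisons were chosen with earlier results of these data known. Figures were drawn with matplotlib 3.10.9.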

Additional observations from a re-analysis of the deposited data

How the results depend on the processing

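No paired analysis was possible because libraries were merged before regions were listed. Leaving out a replicate was not possible either. The folds of the left end were recomputed under 59 alternatives, 50 planned and 9 chosen after seeing the data. Of the 59, 56 kept X beyond 3 Mb as the stretch compared with and 3 took the first 3 Mb of the autosomes, which is another comparison. In all, 42 stayed close to the reported fold, 12 moved and 5 turned direction. Close meant within 1.5 times for the number of regions per Mb, and within a binomial interval of the median or share otherwise. That interval treats regions as independent and takes the value of the other stretch as fixed. It served only to sort the alternatives and measures no spread between replicates. Input density, 1.81-fold, was 1.66 with the edge at 2 Mb, 1.59 at 4 Mb, 1.64 in the best-ranked 25% of regions and 2.01 against the autosomes. ChIP density, 1.77-fold, was 1.54 with the edge at 4 Mb, 1.53 in the best-ranked 25% and 1.61 with no minimum width. The ratio, 0.905-fold, was 0.957 from summed tags, 0.956 in members that pass after division by the input fold, and 0.736 against the autosomes. Regions per Mb, 1.16-fold, were 1.96-fold in the best-ranked 25% and turned to 0.805 after that division, which touches the members alone and lowers their number by construction, so it supports no order. Median width (382 bp against 364 bp) turned to a fold of 0.958 in the best-ranked 50%. Spacing, 0.966-fold within 2 kb, was 0.705 within 1 kb and turned to 1.08 within 5 kb, 1.03 edge to edge and 1.71 in the best-ranked 25%. Every cut by rank follows tag number, which is tied to the choice of members. Beyond what construction gives, the cause was not tested. Few tags limit narrow regions most.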

Other observations

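Narrow members carried more tags than narrow regions elsewhere on X. The 42 members under 100 bp had a median ChIP count of 38 and a median scaled input of 15, while the 149 such regions beyond 3 Mb had medians of 24 and 7. Their median ratio was 2.61, against 3.43 beyond 3 Mb. The 3 members listed as a single base had 32 to 38 ChIP tags, against 21 to 24 at the 6 beyond 3 Mb. Of the 11 members with a ratio above 4, 5 were under 100 bp wide, against 51 of the 83 such regions on X beyond 3 Mb. The highest of these 5 members was 581503 to 581549, with 34 ChIP tags over a scaled input of 5 (ratio 6.80, 2.27 to 36.8).

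Joined across gaps of at most 1000 bp, the members formed 229 groups, of which 200 were single regions, 25 were pairs and 4 held 3 regions. The longest group of 3, at 2548762 to 2554310, spanned 5549 bp with 1981 ChIP tags over a scaled input of 1253. Whether such neighbours are pieces of 1 enriched region was not tested.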
